A study of Mus musculus with 11 samples.

Results

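The genes described here act in mitosis, from entry into the division to the separation of the chromosomes. They are a list of 51 genes chosen by name, each read on the probe with the highest mean signal over the 11 arrays. Of the 51, 49 had a probe with a gene name, and 43 were tested, because their probe was detected on at least 2 arrays at a detection p under 0.05. In all, 19057 genes had a named probe and 11367 were tested. The members were listed by name and not by a measured value, but earlier results of these data were known when they were chosen.

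Expression was measured on Illumina bead arrays in cells of C57BL/6 mice, sorted by flow cytometry from the endosteal bone marrow, the marrow next to bone. Haemopoietic stem cells (HSC) were sorted as LSK CD150+ CD48- (n = 2 arrays), where LSK means cells without lineage markers that carry Sca-1 and Kit. The other 9 arrays held cells positive for FITC-AGE, a fluorescein-tagged reagent, in 3 fractions of 3 arrays each: CD31+ B220+, CD31+ B220- and CD31- B220-. CD31 is an adhesion protein of endothelial and many blood cells, and B220 is a form of CD45 carried by B cells. Scavenger endothelial cells is the labelled cell type of all 3 fractions. For the CD31- B220- samples the source name says HSC and the title does not; grouping followed the titles. Some RNA samples were pooled before labelling, and no label says that replicates came from separate animals, so p-values measure only the spread between these arrays.

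A cell enters mitosis when CDK1 and its cyclins become active, helped by CDC25 phosphatases and by the Polo-like and Aurora kinases. Condensin compacts the chromosomes, kinetochores built on the centromeres attach them to the spindle, and the spindle assembly checkpoint holds back the anaphase-promoting complex until all are attached. Transcripts of many of these proteins are made mainly in the last part of the cell cycle, so in bulk RNA their level depends in part on how many cells divide. Long-term stem cells of the marrow are known to divide rarely, while precursors of the red, myeloid and B lineages divide often.

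Many mitotic genes carry a short promoter element, the cell cycle genes homology region (CHR), which binds MuvB complexes, often downstream of a CCAAT box, which binds NF-Y. RefSeq promoters (build GRCm38.p6), windows of 300 bases around an annotated start, were found for 41 of the 51 members. The CHR was searched as TTTGAA or TTCGAA and the box as CCAAT, both on either strand and with overlaps allowed. A CHR match stood in 30 of the 41 (73.2%), against 21.7% of all genes with a promoter, 61.7% of other mitosis genes and 15.4% of the core subunits of the anaphase-promoting complex. A CCAAT match stood in 78% of the members and in 41.1% of all genes. Birc5, Mad2l1, Cenph, Cenpk, Nusap1 and Ncaph were among the 11 members whose window held neither CHR spelling. The promoters below belong to the members with a CHR match that differed most among the 3 fractions, and are shown to let the elements be seen. Capitals mark the matches. They are Cdca5 at chr19:6084847-6085146 on the plus strand, Aurka at chr2:172370521-172370820 on the minus strand, Plk1 at chr7:122159185-122159484 on the plus strand, and 1 of the 2 Prc1 promoters, at chr7:80294201-80294500 on the plus strand.
Cdca5: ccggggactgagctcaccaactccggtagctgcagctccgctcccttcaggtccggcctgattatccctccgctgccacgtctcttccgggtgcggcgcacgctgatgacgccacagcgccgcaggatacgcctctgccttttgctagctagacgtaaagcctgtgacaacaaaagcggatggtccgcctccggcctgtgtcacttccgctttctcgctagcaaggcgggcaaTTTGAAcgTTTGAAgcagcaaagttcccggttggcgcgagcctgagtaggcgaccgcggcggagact
Aurka: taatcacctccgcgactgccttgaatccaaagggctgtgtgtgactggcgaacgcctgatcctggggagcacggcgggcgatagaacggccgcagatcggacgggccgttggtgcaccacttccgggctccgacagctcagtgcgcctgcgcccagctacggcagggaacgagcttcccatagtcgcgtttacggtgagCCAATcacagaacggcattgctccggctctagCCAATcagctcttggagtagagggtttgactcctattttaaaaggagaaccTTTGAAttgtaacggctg
Plk1: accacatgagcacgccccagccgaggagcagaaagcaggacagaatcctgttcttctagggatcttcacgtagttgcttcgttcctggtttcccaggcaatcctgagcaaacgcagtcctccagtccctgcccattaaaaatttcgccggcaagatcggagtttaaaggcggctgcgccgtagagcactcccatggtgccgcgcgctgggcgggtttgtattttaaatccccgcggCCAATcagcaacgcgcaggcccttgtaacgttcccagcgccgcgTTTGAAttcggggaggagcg
Prc1: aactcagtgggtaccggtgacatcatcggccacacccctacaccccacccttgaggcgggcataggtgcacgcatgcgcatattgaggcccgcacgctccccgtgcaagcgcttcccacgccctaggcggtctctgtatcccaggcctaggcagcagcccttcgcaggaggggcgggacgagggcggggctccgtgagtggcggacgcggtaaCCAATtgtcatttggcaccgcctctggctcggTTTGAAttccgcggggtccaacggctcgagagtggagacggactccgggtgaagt
All 4 held TTTGAA, which began 17 and 9 bases before the start in Cdca5, 5 bases before it in Prc1, and 31 and 33 bases after it in Plk1 and Aurka. CCAAT began 51 and 19 bases before the start in Aurka, 14 in Plk1 and 37 in Prc1, and had no match in the Cdca5 window. A match is a description of letters and not a measured binding site.

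The HSC arrays were brighter than the rest before normalization: the 75th percentile of probe signal was 376.8 to 450.5 there and 145.9 to 211.6 in the fractions. Marker lists only partly matched the labels. CD31+ B220+ cells had all 8 measured B cell markers on every array and no detected Tek, Tie1, Emcn, Stab2, Eng or Esam. Of the other endothelial markers, Stab1 was detected there on every array, Robo4 on 2, and Cdh5 and Kdr on 1 each. CD31- B220- cells had no detected Cdh5, Tek, Tie1, Emcn, Stab2, Robo4 or Esam, while Stab1 and Eng were detected on every array and Kdr on 1. Their summed erythroid markers reached 25839 to 37347, against 1130 to 3405 in the other groups. CD31+ B220- cells had all 10 endothelial markers on at least 1 array and 7 on every array. Beside these stood summed neutrophil precursor markers of 55409 to 64143 and B cell markers of 9938 to 16224. Summed endothelial markers were highest in HSC (12683 to 13190). They were 2095 to 2768 in CD31+ B220-, 1977 to 2013 in CD31- B220- and 532 to 902 in CD31+ B220+ cells. Summed monocyte and macrophage markers were 30903 to 42554 in the B220- fractions and at most 2421 elsewhere, stromal markers were highest in CD31- B220- cells (5391 to 7778), and stem cell markers in HSC (19008 to 19524). The part of these cell types in the results below was not tested, and more dividing cells and more RNA per cell cannot be told apart in bulk samples.

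Mitosis genes were higher in the CD31+ B220- and CD31- B220- fractions than in CD31+ B220+ cells. HSC were lowest after quantile normalization, but their order against CD31+ B220+ cells changed with the scaling of the arrays, as given below. Levels are log2 signals after background correction and quantile normalization. Over the 35 members detected on all 11 arrays, the median log2 signal was 7.88 and 8.35 on the HSC arrays and 9.34, 8.77 and 9.61 in CD31+ B220+ cells. It was 10.90, 10.69 and 10.80 in CD31+ B220- cells and 10.95, 10.76 and 10.15 in CD31- B220- cells. The 4 groups thus did not overlap except for the last 2 fractions. Over all genes tested the median ran from 7.39 to 7.67. Quantile normalization, which gives all arrays the same distribution of probe values, holds this range narrow in advance. The genes tested also include some not detected on all 11 arrays. HSC had the lowest mean for 36 of the 43 tested members (29% of all genes tested), and CD31- B220- cells had the highest for 30 (22.7% of all genes).

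**Figure D1:**
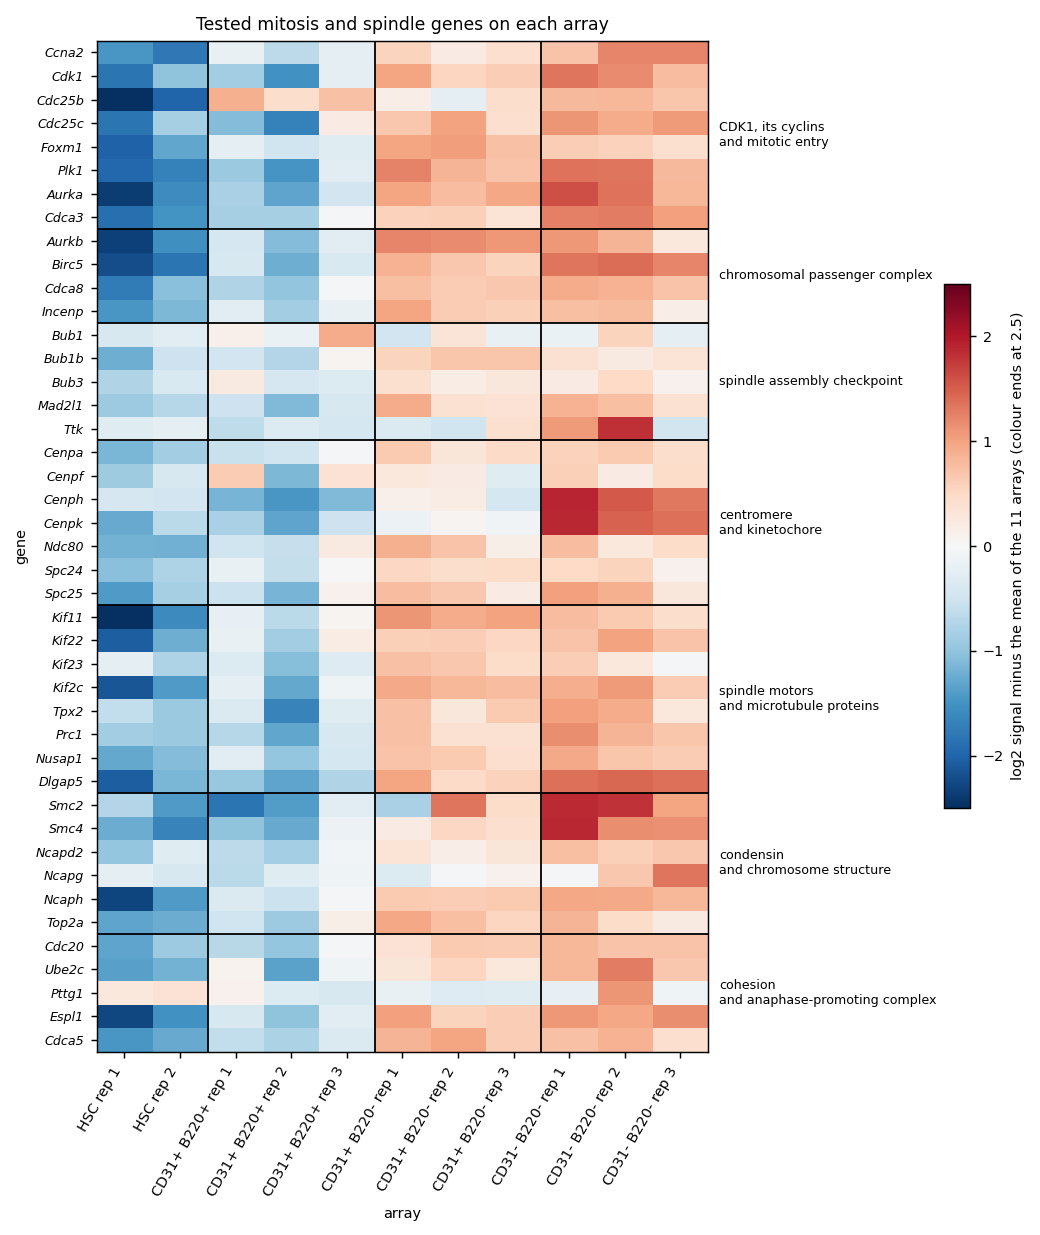
Each cell is the log2 signal of 1 tested member (rows, grouped by role) on 1 of the 11 arrays (columns) minus the mean of that gene over the arrays, with colour ending at 2.5 on either side. Most rows are blue on the HSC arrays and red on the CD31+ B220- and CD31- B220- arrays, while Cenph, Cenpk, Smc2 and Smc4 are reddest in CD31- B220- cells.

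Each fraction was first set against HSC, the stem cell reference of the study, and the 3 comparisons share the same 2 HSC arrays. In CD31+ B220+ cells 21 of the 43 members were higher and 1, Cenph, was lower (limma, Benjamini-Hochberg adjusted p under 0.05 over all genes tested), against 18.4% of all genes higher and 26.9% lower. In CD31+ B220- cells 36 were higher and 0 lower, against 17.5% and 25%. In CD31- B220- cells 39 were higher and 0 lower, against 20.6% and 29.5%. At an unadjusted p under 0.05 the lower counts of the last 2 comparisons were also 0. The median log2 difference of the members was 0.64, 1.78 and 2.03 in the 3 comparisons, beside -0.06, -0.09 and -0.08 for all genes tested. Counting only differences of at least 2-fold, 12, 33 and 36 members were higher, against 11.4%, 11.4% and 13.9% of all genes, and 0 were lower, against 19.1%, 16.5% and 20.7%. Every array of the fraction lay above both HSC arrays for 22, 37 and 41 members, against 29.8%, 29.5% and 30.3% of all genes, and below both for 3, 1 and 0, against 37.7%, 37.6% and 39%.

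These comparisons depend on how the brighter HSC arrays are scaled. With arrays scaled to a common median instead, the median of all genes against HSC moved to -1.22, -1.14 and -1.08, and the share of higher calls among all called genes fell from 40.6%, 41.2% and 41.1% to 8.93%, 10.6% and 13.1%. Members called higher and lower were then 3 and 17 in CD31+ B220+ cells, 21 and 3 in CD31+ B220- cells, and 26 and 2 in CD31- B220- cells. Of all genes tested, 6.66% were then higher and 67.9% lower in CD31+ B220+ cells. These shares were 7.77% and 65.5% in CD31+ B220- cells, and 9.39% and 62.3% in CD31- B220- cells. Of the members called under quantile normalization, the difference turned sign for 17 of 22, 5 of 36 and 3 of 39 in the 3 comparisons. The direction against HSC in CD31+ B220+ cells was thus not settled. Relative to all genes the members moved little: their median minus that of all genes was 0.70, 1.87 and 2.11 under quantile normalization and 0.53, 1.87 and 2.12 under median scaling. Without HSC replicate 1 the higher calls in CD31+ B220+ cells dropped to 7, and without CD31+ B220+ replicate 3 to 13.

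**Figure D2:**
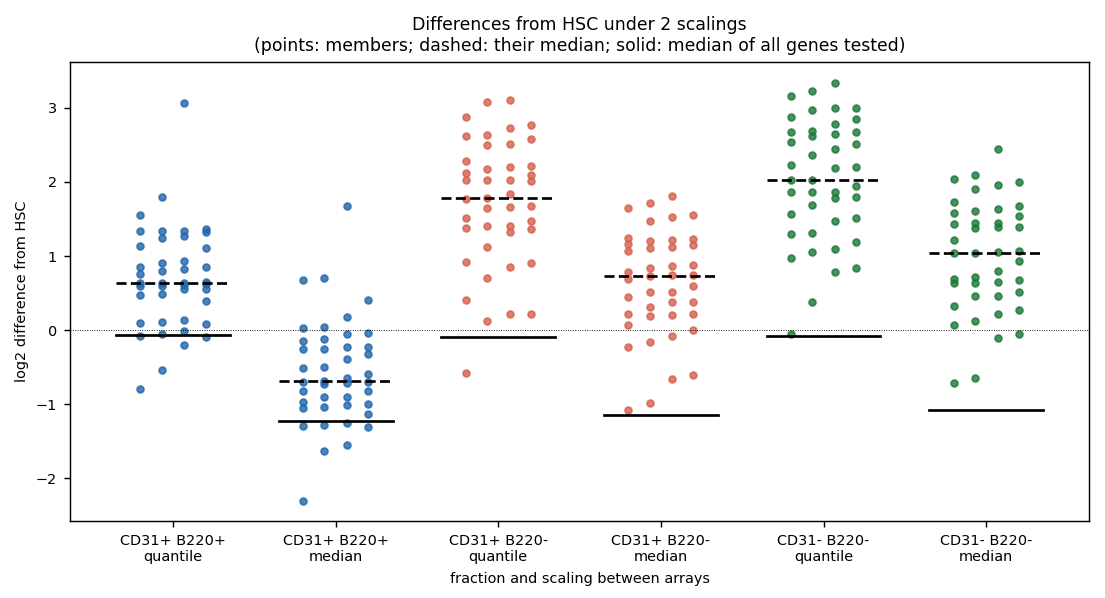
Log2 difference from HSC (vertical axis) of the 43 tested members in each fraction under quantile normalization and under scaling to a common median, with the members' median dashed and the median of all genes solid. The gap between dashed and solid lines is 0.70 and 0.53 in CD31+ B220+ cells, 1.87 under both scalings in CD31+ B220- cells, and 2.11 and 2.12 in CD31- B220- cells.

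The comparisons among the fractions set no group against HSC, although the HSC arrays shared the normalization and the estimate of spread. Of the 43 members 37 differed among the 3 fractions (limma F-test, adjusted p under 0.05), against 51.9% of all genes. CD31+ B220- cells exceeded CD31+ B220+ cells for 35 members and fell below them for 0, against 18.5% and 16.7% of all genes, and 1 member was lower at an unadjusted p under 0.05. CD31- B220- cells exceeded CD31+ B220+ cells for 38 and fell below for 0, against 22.5% and 22.3%, and the unadjusted test gave 0 lower as well. The median log2 differences were 1.17 and 1.31, beside -0.01 and -0.02 for all genes. By at least 2-fold, 27 and 30 members were higher, against 12% and 15.1% of all genes, and 0 were lower, against 8.72% and 13.8%. The arrays of the B220- fraction all lay above those of CD31+ B220+ cells for 34 and 37 members, against 24.1% and 25.6%, and below them for 0 in both, against 23.2% and 26.8%. Under median scaling the counts were 36 and 38 higher with 0 lower, while the share of higher calls among all called genes moved from 52.6% to 63.7% and from 50.1% to 59.5%. Of all genes tested, 18.5% and 23.4% were then called higher, and 10.5% and 15.9% lower.

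**Figure D3:**
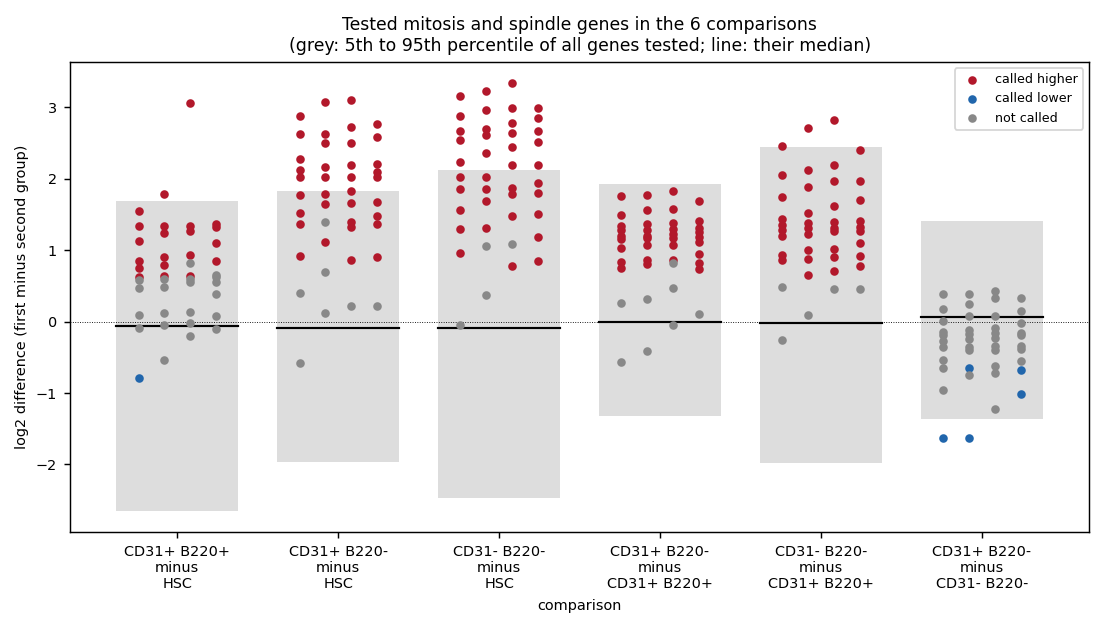
Log2 difference (vertical axis, first minus second group) of each tested member in the 6 comparisons, coloured by call, over a grey band from the 5th to the 95th percentile of all genes tested and a line at their median. The members lie above the line in the first 5 comparisons for the most part, while in the last 33 of 43 lie below it, 5 called lower and 0 higher. The lower calls there are near the 12.1% of all genes called lower.

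Among the genes of mitotic entry, 7 of 8 tested differed among the fractions, against 51.9% of all genes. All 8 were higher than HSC in CD31+ B220- and in CD31- B220- cells, against 17.5% and 20.6% of all genes. Under median scaling 6 and 8 were higher, against 7.77% and 9.39%. Cdk1, the kinase that drives entry, was at 8.40 and 9.21 in HSC, 9.34, 8.71 and 10.002 in CD31+ B220+, 11.20, 10.75 and 10.83 in CD31+ B220-, and 11.56, 11.40 and 10.99 in CD31- B220- cells. Both B220- fractions lay above every other array, and HSC and CD31+ B220+ cells overlapped. Cdk1 was 2.98-fold higher in CD31+ B220- than in CD31+ B220+ cells (log2 1.57 ± 0.32 SE, limma adjusted p = 0.00281) and 3.90-fold higher in CD31- B220- cells (log2 1.96 ± 0.32, limma adjusted p = 0.000398). With the mean of all its probes the first of these calls was lost (log2 0.31, limma adjusted p = 0.222); the other probes of Cdk1 were detected on 0 and 1 arrays.

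Plk1, a kinase of entry and spindle assembly, was at 8.34 and 8.61 in HSC, 9.38, 8.84 and 10.03 in CD31+ B220+, 11.55, 11.16 and 11.01 in CD31+ B220-, and 11.66, 11.65 and 11.11 in CD31- B220- cells. The B220- fractions overlapped each other and no other group. Plk1 was 3.55-fold higher in CD31+ B220- than in CD31+ B220+ cells and 4.17-fold higher in CD31- B220- cells (limma adjusted p = 0.00052 and 0.000126).

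Cdca3, described in Xenopus as a trigger of mitotic entry, was at 9.40 and 9.80 in HSC, 10.47, 10.46 and 11.26 in CD31+ B220+, 11.86, 11.89 and 11.64 in CD31+ B220-, and 12.55, 12.57 and 12.31 in CD31- B220- cells. Its 4 groups did not overlap. The difference between the B220- fractions, -0.68 ± 0.23 for CD31+ minus CD31-, passed the test narrowly (limma adjusted p = 0.0468) and did so in 9 of 20 alternative settings.

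Cdc25b, a phosphatase that activates CDK1, was the exception to the order of the groups. It was at 5.57 and 6.33 in HSC, 9.23, 8.77 and 9.06 in CD31+ B220+, 8.49, 8.10 and 8.77 in CD31+ B220-, and 9.14, 9.17 and 9.03 in CD31- B220- cells. All fractions lay far above HSC, 8.38-fold in CD31+ B220+ cells (log2 3.07 ± 0.26, limma adjusted p = 2.87e-06), and the F-test among fractions missed the threshold (adjusted p = 0.0677). A further probe of the gene differed in sign from it for CD31+ B220- cells against HSC, so the size rests on the probe. Under median scaling the log2 differences from HSC were 1.68, 1.22 and 1.96 in CD31+ B220+, CD31+ B220- and CD31- B220- cells.

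Foxm1, a transcription factor of mitotic genes, was highest in CD31+ B220- cells, at 9.51, 9.56 and 9.25 against 8.28, 8.03 and 8.23 in CD31+ B220+ cells. Ccna2, cyclin A2, was detected on no HSC array. Under quantile normalization it was at least 1.94-fold, 3.26-fold and 5.11-fold higher than HSC in CD31+ B220+, CD31+ B220- and CD31- B220- cells. Such a bound sets the dim arrays at the lowest detected signal or at their own value, whichever is higher. It holds for that normalization only. Under median scaling the log2 differences of Ccna2 from HSC were 0.70, 1.47 and 2.04. Aurka, the spindle pole kinase, was 3.42-fold and 4.37-fold higher in CD31+ B220- and CD31- B220- than in CD31+ B220+ cells, and Cdc25c, a phosphatase like Cdc25b, 2.94-fold and 3.71-fold. Ccnb2 was detected on no array and Nek2 on 1, and Ccnb1 had no named probe.

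All 4 members of the chromosomal passenger complex, which corrects faulty attachments, were called higher in both B220- fractions than in CD31+ B220+ cells. Of all genes 18.5% and 22.5% were. All 4 were also called higher than HSC in CD31+ B220+, CD31+ B220- and CD31- B220- cells, against 18.4%, 17.5% and 20.6% of all genes. Under median scaling all 4 turned negative in CD31+ B220+ cells against HSC and 0 were called, while 67.9% of all genes were called lower. Birc5 was then at -0.042, Aurkb at -0.26, Cdca8 at -0.50 and Incenp at -0.69. The Cdca8 call in that comparison held in 13 of 19 alternative settings. Birc5 (survivin) was at 9.01 and 9.39 in HSC, 10.83, 10.01 and 10.85 in CD31+ B220+, 12.10, 11.89 and 11.78 in CD31+ B220-, and 12.56, 12.62 and 12.44 in CD31- B220- cells. No groups overlapped. It was 2.57-fold and 3.94-fold higher in CD31+ B220- and CD31- B220- than in CD31+ B220+ cells (limma adjusted p = 0.000869 and 2.98e-05), and the B220- fractions missed the threshold against each other (-0.62 ± 0.23, limma adjusted p = 0.0721).

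Cdca8 (borealin) was at 9.70 and 10.39 in HSC, 10.68, 10.46 and 11.39 in CD31+ B220+, 12.19, 12.08 and 12.12 in CD31+ B220-, and 12.37, 12.31 and 12.14 in CD31- B220- cells. The B220- fractions overlapped each other and stood above the rest. Aurkb, the kinase of the complex, and Incenp, its scaffold, were 3.39-fold and 2.26-fold higher in CD31+ B220- than in CD31+ B220+ cells, and 2.52-fold and 2.01-fold higher in CD31- B220- cells.

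Of the 5 spindle assembly checkpoint genes 0 were called in CD31+ B220+ cells against HSC, also at an unadjusted p under 0.05. By adjusted p, 18.4% of all genes were higher there and 26.9% lower. In CD31+ B220- and in CD31- B220- cells 3 of the 5 were higher than HSC, against 17.5% and 20.6% of all genes. Among the fractions 2 of the 5 differed, a smaller share than the 51.9% of all genes. Under median scaling 0 of the 5 were higher than HSC in either B220- fraction, against 7.77% and 9.39% of all genes. In each of these fractions 1 was lower, against 65.5% and 62.3%. In CD31+ B220+ cells 1 was then higher than HSC and 3 were lower, against 6.66% and 67.9%. Mad2l1, the checkpoint protein MAD2, was at 9.54 and 9.72 in HSC, 9.91, 9.33 and 10.03 in CD31+ B220+, 11.36, 10.81 and 10.80 in CD31+ B220-, and 11.31, 11.19 and 10.82 in CD31- B220- cells. HSC and CD31+ B220+ arrays overlapped, as did the B220- fractions, with a clear gap between the pairs. The steps from CD31+ B220+ cells were 2.35-fold and 2.55-fold (limma adjusted p = 0.00185 and 0.000642).

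Bub1b (BUBR1) was at 9.34 and 10.05 in HSC, 10.09, 9.83 and 10.63 in CD31+ B220+, 11.12, 11.27 and 11.27 in CD31+ B220-, and 10.95, 10.80 and 10.91 in CD31- B220- cells. It was highest in CD31+ B220- cells, though its difference from CD31- B220- cells, 0.33 ± 0.23, missed the threshold. Bub3, which also acts outside mitosis, was at 7.50 and 7.87 in HSC, 8.48, 7.84 and 7.91 in CD31+ B220+, 8.65, 8.45 and 8.53 in CD31+ B220-, and 8.47, 8.76 and 8.36 in CD31- B220- cells. Its fractions overlapped, the F-test gave an adjusted p of 0.123, and its rise over HSC reversed under median scaling. The calls against HSC were also lost with the mean of all its probes and without HSC replicate 1. A further probe, detected on 9 arrays, differed from HSC by 0.03 and 0.06 in CD31+ B220- and CD31- B220- cells. Against CD31+ B220+ cells that probe gave -0.66 and -0.63, so the Bub3 values rest on the probe. Ttk, the checkpoint kinase MPS1, was called higher in CD31- B220- than in CD31+ B220+ cells on the strength of 2 arrays, at 6.27 and 7.01, with the other at 4.73 and undetected. Outside that fraction it was detected on 1 array, of CD31+ B220- cells, so it passed the detection filter only through CD31- B220- cells. Its call is in the counts above but adds no support. Bub1 was detected on 2 arrays and called in no comparison.

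Centromere and kinetochore genes held the 2 largest differences between the B220- fractions among the tested members. Cenph, a subunit of the inner kinetochore, was at 7.23 and 7.17 in HSC, 6.49, 6.20 and 6.54 in CD31+ B220+, 7.77, 7.83 and 7.22 in CD31+ B220-, and 9.55, 9.18 and 8.97 in CD31- B220- cells. CD31- B220- arrays stood above all others and CD31+ B220+ arrays below all others. It was 7.07-fold higher in CD31- B220- than in CD31+ B220+ cells (log2 2.82 ± 0.22, limma adjusted p = 8.39e-07) and 3.09-fold higher than in CD31+ B220- cells (limma adjusted p = 0.000169). Its lower level in CD31+ B220+ cells than in HSC (-0.79 ± 0.24, limma adjusted p = 0.0192) lost its call in 5 of 19 alternative settings.

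Cenpk, a partner of Cenph, was at 6.89 and 7.47 in HSC, 7.32, 6.82 and 7.63 in CD31+ B220+, 7.99, 8.21 and 8.05 in CD31+ B220-, and 10.02, 9.61 and 9.52 in CD31- B220- cells. It was 3.10-fold higher in CD31- B220- than in CD31+ B220- cells (limma adjusted p = 0.000382), and the 2 groups did not overlap. Both genes kept this call in all 20 alternative settings. Erythroid markers were also highest in CD31- B220- cells, as given above, and their part in it was not tested.

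Cenpa, the histone variant that marks centromeres, was at 11.74 and 12.01 in HSC, 12.33, 12.37 and 12.85 in CD31+ B220+, 13.54, 13.17 and 13.35 in CD31+ B220-, and 13.46, 13.54 and 13.32 in CD31- B220- cells. The B220- fractions overlapped each other only, 1.79-fold and 1.89-fold above CD31+ B220+ cells. Ndc80, Spc24 and Spc25, of the complex that grips microtubules, were 1.57-fold to 2.40-fold higher in the B220- fractions than in CD31+ B220+ cells, while Nuf2, their partner, was detected on 1 array. Cenpf was called in no comparison, and Cenpe, a kinetochore motor, was detected on 1 array.

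All 8 tested spindle motors and microtubule proteins were higher in each B220- fraction than in CD31+ B220+ cells and than in HSC. Of all genes 18.5% and 22.5% were higher than in CD31+ B220+ cells, and 17.5% and 20.6% higher than in HSC. Under median scaling only 5 and 6 were called higher than HSC, against 7.77% and 9.39% of all genes. Tpx2 was then at -0.16 in CD31+ B220- and Kif23 at -0.048 in CD31- B220- cells. Dlgap5 (HURP), which stabilizes spindle fibres, was at 6.53 and 7.45 in HSC, 7.64, 7.27 and 7.83 in CD31+ B220+, 9.58, 9.06 and 9.17 in CD31+ B220-, and 9.96, 10.03 and 9.97 in CD31- B220- cells. The fractions did not overlap. It was 3.22-fold and 5.30-fold above CD31+ B220+ cells (limma adjusted p = 0.000306 and 1.05e-05).

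Prc1, which bundles microtubules in the central spindle, was at 10.78 and 10.73 in HSC, 10.93, 10.36 and 11.24 in CD31+ B220+, 12.38, 12.04 and 12.04 in CD31+ B220-, and 12.81, 12.50 and 12.34 in CD31- B220- cells. HSC lay within the range of CD31+ B220+ cells, and the B220- fractions overlapped above them. Kif11, the motor that separates the spindle poles, and Kif22, a motor on chromosome arms, were 3.46-fold and 2.54-fold above HSC in CD31+ B220+ cells. Under median scaling neither was called there, at log2 0.18 and -0.056. Kif23, a central spindle motor, differed from HSC there by -0.08 ± 0.28, and Tpx2, an activator of Aurora A, by -0.01 ± 0.39. Further probes of Kif23 gave log2 differences of 0.68, 0.89 and 0.61 there, so its value rests on the probe. Kif2c, a microtubule depolymerase, and Nusap1, a spindle-associated protein, were 2.61-fold and 2.22-fold higher in CD31+ B220- than in CD31+ B220+ cells. Racgap1 and Kif20a were detected on no array.

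Of the 6 tested genes of condensin and chromosome structure, all differed among the fractions, against 51.9% of all genes, Ncapg with a limit given below. Ncaph, the kleisin subunit of condensin, was at 7.93 and 8.81 in HSC, 9.88, 9.69 and 10.20 in CD31+ B220+, 10.89, 10.86 and 10.88 in CD31+ B220-, and 11.20, 11.18 and 11.06 in CD31- B220- cells. Its 4 groups did not overlap, with steps of 1.94-fold and 2.34-fold above CD31+ B220+ cells (limma adjusted p = 0.0061 and 0.000836). Top2a, the topoisomerase that untangles sister chromatids, was at 9.27 and 9.34 in HSC, 10.08, 9.68 and 10.73 in CD31+ B220+, 11.56, 11.34 and 11.12 in CD31+ B220-, and 11.43, 11.05 and 10.81 in CD31- B220- cells. The last 2 groups overlapped each other and no other. Their order rests on the probe: CD31+ B220- minus CD31- B220- cells was 0.24 here, and -0.82 and -0.94 on further probes detected on 11 and 6 arrays. The first of these also put CD31+ B220- cells only 0.45 above CD31+ B220+ cells, against 1.17 here.

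Smc4, an ATPase of condensin, was at 6.30 and 5.87 in HSC, 6.53, 6.27 and 7.40 in CD31+ B220+, 7.75, 8.06 and 7.95 in CD31+ B220-, and 9.42, 8.70 and 8.68 in CD31- B220- cells. It was 2.02-fold higher in CD31- B220- than in CD31+ B220- cells (limma adjusted p = 0.0261), and kept this call in 15 of 20 alternative settings. Smc2, its partner, differed by -1.22 ± 0.52 in the same direction without a call (limma adjusted p = 0.11), with CD31+ B220- arrays at 5.84, 7.99 and 7.09. Ncapg was detected on 2 arrays, both CD31- B220-, so it passed the detection filter through that fraction alone. Its calls in the F-test and as higher there than in HSC and CD31+ B220+ cells are in the counts above but add no support. Ncapd2 was 1.74-fold and 2.29-fold higher in the B220- fractions than in CD31+ B220+ cells. Mki67, the usual marker of dividing cells, had no named probe.

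Among genes of cohesion and the anaphase-promoting complex, Cdc20, the activator of that complex, was at 9.63 and 10.04 in HSC, 10.26, 9.98 and 10.91 in CD31+ B220+, 11.32, 11.61 and 11.58 in CD31+ B220-, and 11.77, 11.65 and 11.66 in CD31- B220- cells. The B220- fractions stood above all other arrays, 2.17-fold and 2.48-fold over CD31+ B220+ cells (limma adjusted p = 0.00318 and 0.000715). Cdca5 (sororin), which protects cohesion, was at 7.21 and 7.41 in HSC, 8.04, 7.86 and 8.29 in CD31+ B220+, 9.52, 9.64 and 9.28 in CD31+ B220-, and 9.40, 9.53 and 9.07 in CD31- B220- cells. HSC, CD31+ B220+ and the B220- fractions formed 3 separate levels, with steps of 2.66-fold and 2.41-fold above CD31+ B220+ cells (limma adjusted p = 0.000141 and 0.000186).

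Espl1, the separase that cuts cohesin, was 2.44-fold and 3.08-fold higher in CD31+ B220- and CD31- B220- than in CD31+ B220+ cells. Ube2c, the ubiquitin-conjugating enzyme of the complex, was detected on no HSC array. Under quantile normalization it was at least 2.54-fold and 3.72-fold higher than HSC in CD31+ B220- and CD31- B220- cells. Under median scaling its log2 differences from HSC there were 1.11 and 1.54. Pttg1 (securin), the inhibitor of separase, was the only tested member with its highest mean in HSC, at 5.39 and 5.49. It was detected there and on 1 CD31- B220- array, and was called in no comparison under quantile normalization. Under median scaling it was called lower than HSC in every fraction. The log2 differences were -0.98, -0.98 and -0.71 in CD31+ B220+, CD31+ B220- and CD31- B220- cells (limma adjusted p = 0.00226, 0.00224 and 0.0199).

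**Figure D4:**
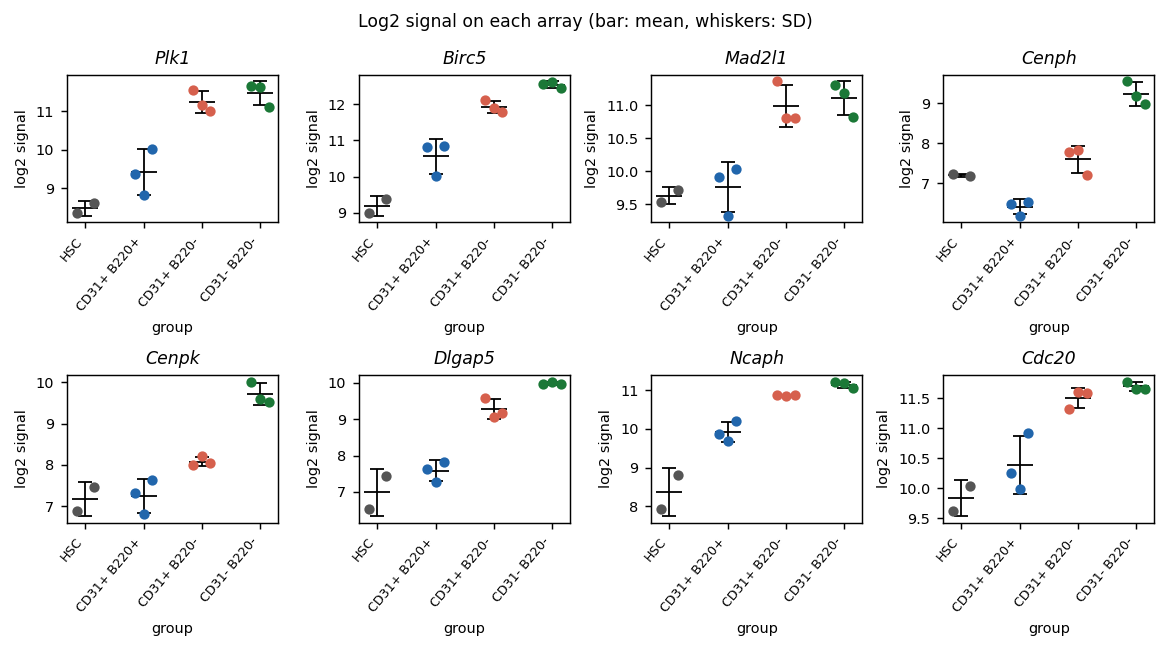
Log2 signal on each array (points) of 8 members by group, with the mean as a bar and the SD as whiskers; each panel has its own vertical range. Plk1, Birc5, Mad2l1, Dlgap5, Ncaph and Cdc20 are high in both B220- fractions, while Cenph and Cenpk are highest in CD31- B220- cells.

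Between the B220- fractions few of these genes were called. Of 43 members 0 were higher in CD31+ B220- cells and 5 were lower, namely Cenph, Cenpk, Smc4, Ccna2 and Cdca3, against 16% and 12.1% of all genes. The lower count was thus near the share of all genes. The count of lower members was 9 without background correction, 9 with the fraction arrays normalized alone and 2 with the deposited processed values. Of the 43, 33 lay below the median of all genes. Ccna2 kept its call in 12 of 20 alternative settings. At an unadjusted p under 0.05 limma gave 0 higher and 10 lower. By at least 2-fold 0 were higher and 3 lower, against 9.14% and 7.51% of all genes, the lower count again near that share. All CD31+ B220- arrays lay above all CD31- B220- arrays for 3 members, against 23.1% of all genes, and below them for 13, against 17.3%. The 95% interval of the difference lay within 2-fold either way for 26 members and included 0 for 33, with a median half-width of 0.55 on the log2 scale. Differences smaller than that were not resolved by 3 arrays a group.

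Arrays of the same group also differed in these genes together. Among the 35 members detected everywhere, CD31+ B220+ replicate 2 was the lowest of its group for 34, against 30.2% of all genes, and replicate 3 was the highest for 31, against 30.4%. CD31- B220- replicate 3 was the lowest of its group for 28, against 36.9%, and replicate 1 the highest for 23, against 33.1%. HSC replicate 1 was the lower of its pair for 29, against 55.2%, and CD31+ B220- replicate 1 the highest of its group for 24, against 37.5%. Summed neutrophil precursor markers were 5831 on CD31+ B220+ replicate 2, against 1184 and 1132 on the others of its group. They were 31934 on CD31- B220- replicate 3, against 11693 and 9389. By replicate number, summed erythroid markers of that fraction were 37347, 30444 and 25839, and monocyte and macrophage markers 30903, 34267 and 38849. The part of these cell types in the levels was not tested.

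Other lists of mitotic regulators were read beside the members. The shares of all genes called higher and lower were 18.5% and 16.7% for CD31+ B220- against CD31+ B220+ cells, and 22.5% and 22.3% for CD31- B220- against CD31+ B220+ cells. Of 57 other tested mitosis genes, 38 were higher and 0 lower in CD31+ B220- than in CD31+ B220+ cells, and 45 were higher and 1 lower in CD31- B220- cells. Anln (anillin), a scaffold of the cleavage furrow, was 4.74-fold higher in CD31+ B220- cells, and Ncapg2, a condensin II subunit, 6.31-fold higher in CD31- B220- cells. The 11 tested core subunits of the anaphase-promoting complex gave 0 and 2 higher calls in these comparisons with 0 lower, and at an unadjusted p under 0.05 limma gave 0 and 3 higher with 1 and 0 lower.

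Of 12 cohesin genes, 2 were higher and 2 lower in each of the same comparisons, near the shares of all genes. Esco2, a cohesin acetyltransferase, was 11.9-fold above HSC in CD31- B220- cells. Among 17 MuvB, E2F and pocket protein genes, 5 were higher and 4 lower in CD31+ B220- than in CD31+ B220+ cells, and 11 and 1 in CD31- B220- cells. E2f2, a transcription factor of the cell cycle, was 24.96-fold, 11.6-fold and 21.5-fold above HSC in CD31+ B220+, CD31+ B220- and CD31- B220- cells. E2f6, of the same list, was 4.01-fold lower than HSC in CD31+ B220+ cells. These differences from HSC, and that of Esco2, are given under quantile normalization only. E2f4, a factor tied to cell cycle exit, was 3.69-fold lower in CD31+ B220- than in CD31- B220- cells, and Cep55, which acts in the final cut between daughter cells, was 5.61-fold higher.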

How the data were processed

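Per array and probe, the authors deposited a mean bead intensity without normalization, and a fraction under a detection heading. This deposited fraction rose with signal (Spearman at least 0.987), so it was read as 1 minus p. The authors' processed values matched a log2 scale; no source used here names the logarithm's base, and they served as an alternative. Per the submitters' processing notes, lumi 1.1.0 was among the tools, with no role stated.

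Intensities were corrected for background (normexp, using detection p), then quantile-normalized and logged to base 2 with an offset of 16 (neqc, limma 3.58.1, R 4.3.3, package data.table at 1.17.8). The platform annotation gave 1 symbol for 34885 of 45281 probes, several for 18 and none for 10378; genes were named only from the first. All 11 arrays entered a linear model with 1 mean per group. Limma's moderated 2-sided tests and F-test were adjusted by Benjamini-Hochberg over 11367 genes and called under 0.05; the fit was tested on simulated data. Values on every array were given for the member with the largest F over the 4 groups and that with the highest mean in each role list, for Cdk1, Plk1, Cdc20 and Bub3, and for members called against the main direction; the array values of Cenpk, Smc4, Smc2, Foxm1, Ttk and Pttg1 were added after their values were seen. Of the other lists, the 2 called genes with the largest difference per comparison were eligible. The members and lists were chosen with earlier results of these data known. Precision is limited by the number of arrays. Replicate numbers were not paired across groups: the deviations of 15 same-numbered pairs correlated at -0.08 to 0.18, with 1 over 0.1.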

Additional observations from a re-analysis of the deposited data

How the results depend on the processing

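Scaling arrays to a common median changed most. Higher and lower members against HSC were then 3 and 17 in CD31+ B220+, 21 and 3 in CD31+ B220- and 26 and 2 in CD31- B220- cells. The shares of all genes were 6.66% and 67.9%, 7.77% and 65.5%, and 9.39% and 62.3% in the same order. The log2 difference of CD31+ B220+ cells from HSC reversed for 17 of 22 called members, among them Cdca3 (-0.23), Birc5 (-0.042), Cdca8 (-0.50), Cenpa (-0.23), Top2a (-0.59), Cdca5 (-0.90) and Plk1 (-0.64). Against HSC it reversed for 5 of 36 in CD31+ B220- cells, namely Bub3 (-0.66), Cenpk (-0.61), Ncapd2 (-0.24), Tpx2 (-0.16) and Spc24 (-0.087), and for 3 of 39 in CD31- B220- cells, namely Bub3 (-0.64), Spc24 (-0.11) and Kif23 (-0.048). The HSC arrays were the brighter ones, and a run of their own cannot be told apart from cell type. With a 2-fold difference also needed, CD31+ B220+ against HSC gave 12 higher and 0 lower, and 3 members were lower in CD31+ B220- than in CD31- B220- cells. Without background correction the counts of lower members were 0 in CD31+ B220+ against HSC, 1 in CD31+ B220- against CD31+ B220+ and 9 in CD31+ B220- against CD31- B220- cells. The mean of all probes of a gene gave 0, 1 and no change in the last. The deposited processed values gave 2 lower in CD31+ B220- against CD31- B220- cells, and the 9 fraction arrays normalized alone gave 9 there and 1 against CD31+ B220+. Arrays of the 2 groups alone gave 1 lower in CD31+ B220- against HSC. The cause of these shifts was not tested.

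Leaving out each replicate gave 7 to 24 higher and 0 to 2 lower members in CD31+ B220+ against HSC, 30 to 37 and 0 to 1 in CD31+ B220- against HSC, and 36 to 40 higher in CD31- B220- against HSC. Against CD31+ B220+ cells it gave 27 to 35 higher in CD31+ B220- and 31 to 38 in CD31- B220- cells. Between the B220- fractions 3 to 6 were lower, with 3 when CD31+ B220- replicate 3 or CD31- B220- replicate 2 was left out. The F-test called 32 to 38.

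With the replicate number as a block, 15, 36 and 39 members were higher than HSC, 34 and 37 higher than CD31+ B220+ cells, 4 lower in CD31+ B220- than in CD31- B220- cells, and 37 differed among the fractions. The numbers are shared by label only. Of the other probes of called members, 1 of 13, 1 of 30 and 1 of 28 went the opposite way, for Spc24, Cdc25b and Kif23.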
